A study of Mus musculus with 12 samples.

Results

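The chromatin around Myc was described from 50 kb upstream of its start site to 2 Mb downstream, on chromosome 15 of mm10, the stretch that holds the gene and its long downstream desert of enhancers. Myc (ENSMUSG00000022346.15) lies on the plus strand at chr15:61985391-61990374, so the region ran from chr15:61935391 to chr15:63985391. A DNase I hypersensitive site (DHS) was a set of overlapping peaks from the 12 deposited peak lists, and a DHS belonged to the region when its midpoint fell inside it. The region held 163 of 170207 DHSs. Each DHS is named by the distance of its midpoint from the Myc start site, so +1270.6 kb lies downstream.

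Accessible chromatin had been mapped by DNase-seq, in which DNase I cuts open DNA and the short released fragments are sequenced, at successive stages by which mouse marrow progenitors become early T cell precursors under the Notch ligand Delta1. The libraries came from C57BL/6J mice, whose age is not given in the sources used here. LSK (3 libraries) were lineage-negative marrow cells with high SCA-1 and KIT, sorted and not cultured. The other groups were grown from LSK cells in serum with SCF, FLT-3 ligand, IL-6 and IL-11 on Retronectin. DN1 (2 libraries, KIT++CD44+CD25-), DN2a (2 libraries, KIT++CD44+CD25+) and DN2b (2 libraries, KIT+CD44loCD25+) were sorted from cultures on immobilized Delta1, and IgG (3 libraries) was cultured on human IgG in place of the ligand. DN2a and DN2b came from cultures given IL-7 and DN1 from cultures without it. The study harvested the DN stages one after another, so DN2 stage, IL-7 and time in culture cannot be told apart. No sort gate is given for IgG. DN stages were taken from the same LSK isolates, and which libraries share an isolate is not given, so p-values treat as independent some libraries that may not be. The study's text gives the Delta1 cultures as high-density ligand, and the labels give no density for single libraries. Replicate numbers were given here in accession order and only name libraries.

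Myc encodes a transcription factor that drives growth and division, and many of its enhancers lie far downstream in a stretch with few coding genes. In T cells a Notch-dependent enhancer called N-Me, bound by the Notch cofactor RBPJ, is used, whereas in blood stem and progenitor cells a more distal group of enhancers, the blood enhancer cluster, is required. Pvt1, the first gene downstream of Myc, makes a long non-coding RNA and holds further regulatory elements in its introns. The positions of N-Me and of the blood enhancer cluster are not in the files used here. The DHSs between 1200 and 1400 kb and between 1600 and 1800 kb are described as those at their known distances, and no more than distance was used to match them.

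The sequences on which the results turn are the highest-scoring 150-bp peak of 7 DHSs, read from the GRCm38 reference, which is the mm10 build. Capitals mark the letters TGGGAA (the core bound by RBPJ), TGNGGT (RUNX) and CTTTGA (TCF1 and LEF1), on either strand, so that TTCCCA is an RBPJ match on the reverse strand. Such letters stood in the highest peak of 12.8%, 39.9% and 11.2% of all DHSs, in that order.
+745.3 kb (largest difference between Delta1-cultured and other libraries), chr15:62730657-62730806, plus strand: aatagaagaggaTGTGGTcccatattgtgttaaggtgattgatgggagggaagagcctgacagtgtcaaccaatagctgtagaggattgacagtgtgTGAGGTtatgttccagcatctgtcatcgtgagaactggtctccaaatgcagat
+1270.6 kb (largest difference between DN2 and other libraries), chr15:63255857-63256006, plus strand: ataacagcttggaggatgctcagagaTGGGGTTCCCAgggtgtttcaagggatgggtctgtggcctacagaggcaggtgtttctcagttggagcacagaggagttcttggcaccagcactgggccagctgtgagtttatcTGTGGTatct
+1285.1 kb (in every Delta1-cultured library and no other), chr15:63270437-63270586, plus strand: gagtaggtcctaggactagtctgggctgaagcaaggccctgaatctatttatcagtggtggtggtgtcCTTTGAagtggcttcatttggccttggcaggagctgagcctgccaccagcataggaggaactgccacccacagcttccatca
+1625.9 kb (higher with Delta1, lower in IgG), chr15:63611277-63611426, plus strand: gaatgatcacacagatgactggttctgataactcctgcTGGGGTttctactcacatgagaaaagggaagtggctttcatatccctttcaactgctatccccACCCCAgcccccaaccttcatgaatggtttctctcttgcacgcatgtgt
+1663.0 kb (top of the distal cluster), chr15:63648237-63648386, plus strand: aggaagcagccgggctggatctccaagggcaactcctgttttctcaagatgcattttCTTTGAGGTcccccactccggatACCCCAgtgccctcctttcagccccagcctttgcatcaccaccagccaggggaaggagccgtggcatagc
+1719.5 kb (lower in DN2), chr15:63704837-63704986, plus strand: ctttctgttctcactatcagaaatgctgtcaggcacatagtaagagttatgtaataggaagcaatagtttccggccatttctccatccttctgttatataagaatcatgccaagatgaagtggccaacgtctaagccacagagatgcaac
+1512.0 kb (in every IgG library and no other), chr15:63497317-63497466, plus strand: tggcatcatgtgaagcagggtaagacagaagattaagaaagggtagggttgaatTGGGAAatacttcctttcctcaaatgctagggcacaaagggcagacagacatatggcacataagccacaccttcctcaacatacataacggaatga
In the +1270.6 kb peak the RBPJ match begins at base 32 on the minus strand and shares 1 letter with a RUNX match that begins at base 27. A second RUNX match begins at base 141. In the +1663.0 kb peak the TCF1 and LEF1 match at base 58 overlaps the RUNX match at base 61. The +1719.5 kb peak holds none of these letters. The promoter peak of Myc is described by its values alone.

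The lists differed in length from 32952 to 111582 peaks on the autosomes and X, and the 3 IgG lists were the shortest. DN2b replicate 2 was the longest list and supplied 23 of the 59 DHSs of the region that were found in 1 library. Each value is the percentile of a peak's score among the peaks of its own library, from 0 (no peak) to 100, and results were repeated with every list cut to its 32952 highest-scoring peaks (equal list lengths). Of 10 T precursor marker promoters, 1 to 3 had a peak in LSK, 5 in DN1, 8 in DN2a, 8 to 9 in DN2b and 0 in IgG, and their summed percentiles ran from 21.3 to 73.9 in LSK, 282 to 310 in DN1, 579 to 586 in DN2a and 649 to 789 in DN2b. The promoter of Ptcra, the pre-TCR alpha chain, had no peak in any library. Of 8 stem and progenitor promoters, 5 had a peak in each LSK and DN1 library, 4 to 5 in DN2a, 5 to 6 in DN2b and 2 to 4 in IgG, and their summed percentiles were 399.4 to 435 in LSK, 362 to 409 in DN1, 279.8 to 299 in DN2a, 307 to 398.6 in DN2b and 92.3 to 239 in IgG. By these sums LSK overlapped DN1 and every LSK library was above every DN2 library. The promoters of Ly6a (which encodes SCA-1) and Mecom had none in any library. Of 8 myeloid promoters, 4 to 5 had a peak in IgG and 0 to 2 elsewhere. Of 3 mast cell promoters, 2 had a peak in each Delta1-cultured library, 1 in LSK and 0 to 1 in IgG, and of 4 NK cell promoters 1 to 3, 0 to 1 and 0. Of 5 erythroid and megakaryocyte promoters, 3 had a peak in each LSK library, 3 to 4 in DN1, 2 to 3 in DN2a, 1 to 2 in DN2b and 0 to 1 in IgG.

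Few DHSs of the region were shared by every group. Over the 12 lists merged, it held 79.5 DHSs per Mb against 64.6 per Mb over the chromosomes used. This density is of merged lists, and single libraries differed. The region made up 2.05 of 2633.78 Mb. Every LSK and DN1 library had fewer peaks in it than an even spread by length gives, and both DN2b libraries more. DN2a and IgG libraries fell on both sides. Of its DHSs, 3 (1.84%) were present in all 12 libraries, against 7.68% of all DHSs, and 59 (36.2%) were found in 1 library, against 32.7% of all. Those 3 DHSs lay at -1.8 kb, +0.1 kb and +1939.3 kb. No DHS lay further upstream than -2.2 kb. By midpoint, 49 DHSs were intergenic and 34 lay in introns of Pvt1. Introns of the lincRNA gene Gm41335 alone held 32, and introns of the lincRNA gene Gm41333 held 14. A further 2 lay in introns of both Gm41335 and the lincRNA gene Gm49014, and 1 in a Gm41335 intron and a Gm49014 exon. The annotation placed 32 genes in the region, 6 of them protein-coding.

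**Figure D1:**
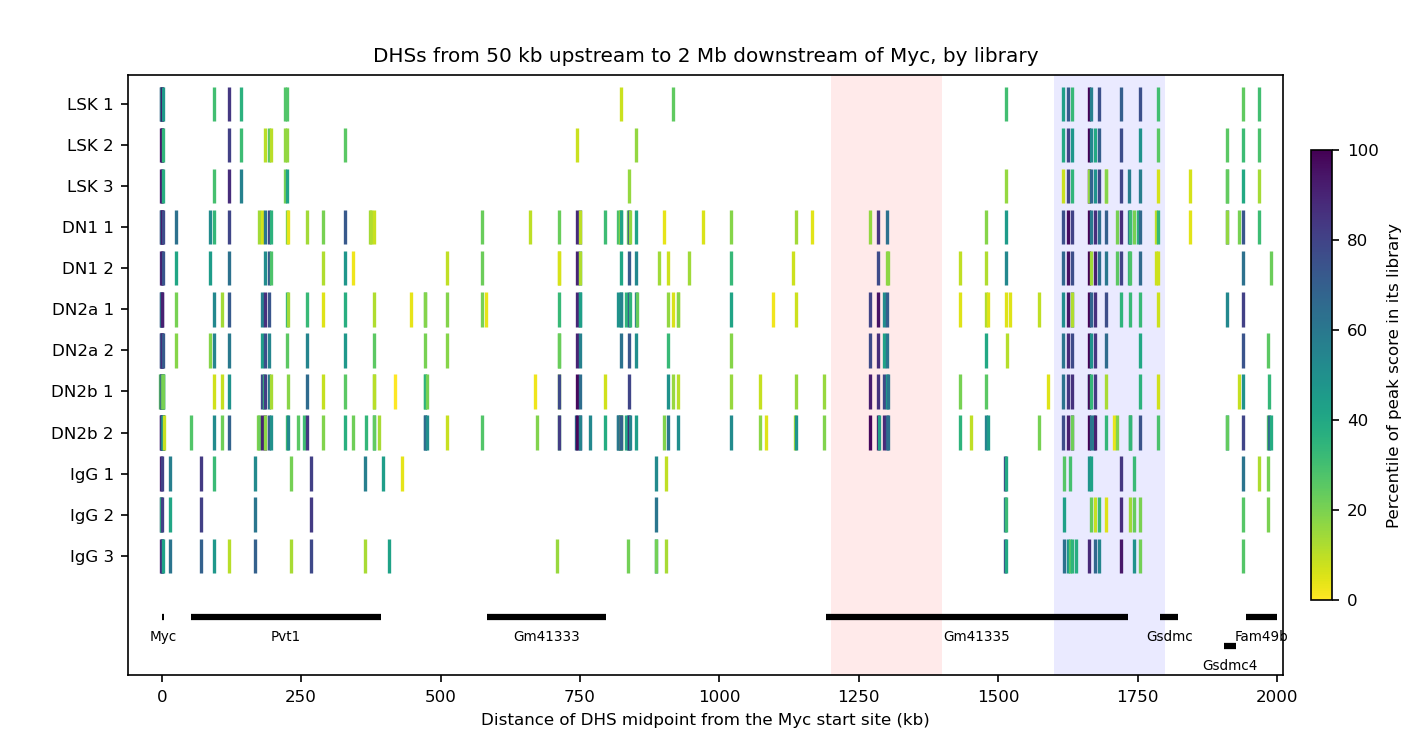
Each row is a library, each tick a DHS at its distance from the Myc start site in kb, coloured by the percentile of its peak score in that library, with genes as bars below. The pink band (1200 to 1400 kb) is empty in every LSK and IgG library, and the blue band (1600 to 1800 kb) holds DHSs in all 12 libraries.

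More DHSs of the region were open in Delta1-cultured libraries. LSK libraries had a peak at 24, 27 and 29 of the DHSs and IgG libraries at 24, 21 and 32. DN1 libraries had 71 and 50, DN2a libraries 66 and 43, and DN2b libraries 61 and 100. As deposited, no Delta1-cultured library overlapped any LSK or IgG library. At equal list lengths LSK libraries had 13, 11 and 12, DN1 libraries 20 and 21, DN2a libraries 25 and 28, DN2b libraries 25 and 24, and IgG libraries 21, 21 and 31. LSK then stood lowest and IgG overlapped the Delta1-cultured libraries, so the separation of IgG from them was present only in the lists as deposited. Peaks in the region per 10000 peaks of the list were 5.14 ± 0.434 in LSK (SD, n = 3), 7.53 ± 0.0538 in DN1 (n = 2), 8.69 ± 1.75 in DN2a (n = 2), 9.61 ± 0.667 in DN2b (n = 2) and 7.19 ± 1.17 in IgG (n = 3).

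**Figure D2:**
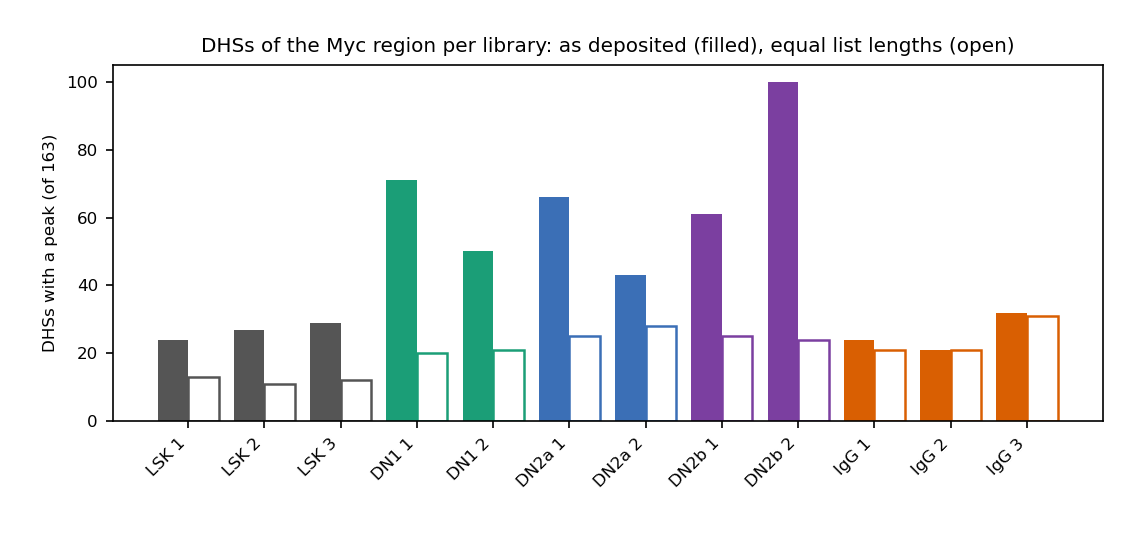
Bars give the number of the region's 163 DHSs with a peak in each library, as deposited (filled) and with every list cut to its 32952 highest-scoring peaks (open). LSK libraries sit between 11 and 13 at equal lengths, below the other 9 libraries.

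The Myc promoter was accessible in every library. All 12 had a peak in the window of 1 kb to each side of the start site, as had 36.2% of the 21755 protein-coding promoters. Its percentile was 96.7, 94.6 and 91.7 in LSK, 94.8 and 94.4 in DN1, 91.2 and 89.1 in DN2a, 90.7 and 95.2 in DN2b, and 80.5, 80.9 and 85.7 in IgG. The 3 IgG libraries were the lowest of the 12. DN2a lay below LSK and DN1, which overlapped each other, and DN2b overlapped all of these. Delta1-cultured libraries averaged 92.6 ± 2.57 (SD, n = 6) and the LSK and IgG libraries 88.3 ± 7.0 (n = 6), a difference of 4.24 points that did not pass (adjusted p = 0.301, two-sided exact permutation test). With lists of equal length the difference was -1.68 points (adjusted p = 0.715, exact permutation test). The promoter DHS itself, +0.1 kb in an exon of Myc, was 10.8 points lower in IgG than in the other libraries (adjusted p = 0.0224, exact permutation test), and at equal list lengths the difference was -5.00 points and did not pass (adjusted p = 0.233). The DHS at -1.8 kb was even as deposited, between 84.0 and 94.0 in all 12 libraries. At equal list lengths it was less so, at 65.9 to 84.2 with Delta1. It then stood at 76.9, 89.3 and 84.3 in LSK and 90.8, 84.0 and 89.3 in IgG. DHSs at -0.9 kb and -0.2 kb were each found in 7 libraries.

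The partners and antagonists of MYC were mostly open throughout. Of the 12 network genes, 11 were tested and 8 had a promoter peak in all 12 libraries. 4 were higher with Delta1 and 0 lower, where 14.3% of tested promoters were higher and 0.656% lower. The median Delta1 difference was 1.55 points in the network and 6.75 points over all protein-coding promoters tested. Mycn, the MYC paralogue, stood at 90.6, 87.9 and 85.2 in LSK, 94.8 and 94.97 in DN1, 90.8 and 91.9 in DN2a, 94.9 and 94.3 in DN2b, and had no peak in any IgG library (difference 49.7, adjusted p = 0.0244, exact permutation test). Mycl, the third family member, stood at 21.2, 37.2 and 13.3 in LSK, 69.7 and 63.2 in DN1, 62.3 and 56.2 in DN2a, 63.1 and 81.5 in DN2b, and had none in IgG either (difference 54.1, adjusted p = 0.0244, exact permutation test). LSK and Delta1-cultured libraries did not overlap for Mycl. Max, the obligate partner of MYC, was between 98.3 and 99.96 in the Delta1-cultured libraries, at 97.0, 99.1 and 97.9 in LSK, which overlapped them, and between 88.0 and 93.1 in IgG (difference 5.06, adjusted p = 0.0434, exact permutation test). Mxd3, a MAX-binding antagonist, also passed (difference 17.9, adjusted p = 0.0347, exact permutation test). In lists of equal length, where 4.21% of tested promoters were higher and 4.53% lower, Mycl was left in the 6 Delta1-cultured libraries alone, at 11.4 to 37.4, so no p is given for it, and Mga, a MAX-binding repressor, was lower, with a difference of -12.4 points (adjusted p = 0.0344, exact permutation test). The same exact test then gave Mycn, Max and Mxd3 adjusted p = 0.0705, 0.0802 and 0.257. Mxd1, Mxd4, Mnt, Mlx, Mlxip and Mga did not pass as deposited, nor did Mxi1, found in 4 libraries. Mlxipl had no peak. Of the other coding genes of the region, the gasdermins Gsdmc, Gsdmc2, Gsdmc3 and Gsdmc4 had no promoter peak in any library, and Fam49b, which starts past its end, had one in all 12.

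Between 50 and 300 kb, along Pvt1, the region held 26 DHSs, some open with Delta1 and others in LSK or IgG. LSK libraries had 5, 7 and 5 of them, DN1 12 and 6, DN2a 10 and 8, DN2b 11 and 17, and IgG 5, 3 and 6. With lists of equal length LSK had 1, 1 and 2, DN1 2 and 2, DN2a 5 and 6, DN2b 5 and 4, and IgG 5, 3 and 5. DN1 overlapped LSK in both counts, and IgG overlapped the Delta1-cultured libraries in both. A DHS with a peak in fewer than 3 libraries of the lower side of a contrast entered the tests only through the side where it is high, so its difference is given here and in what follows as a description, without a p. The DHS at +184.5 kb was at 10.5 in LSK replicate 2 and absent from the other LSK and all IgG libraries. It stood at 60.7 and 51.5 in DN1, 86.5 and 76.8 in DN2a, and 81.7 and 94.3 in DN2b. Every Delta1-cultured library was above every other, and the difference was 73.5 points. At equal list lengths it was found only in the 4 DN2 libraries, at 59.4 to 80.7. The DHS at +192.5 kb was at 25.6 in LSK replicate 2, at 79.8 and 72.7 in DN1, 73.6 and 54.4 in DN2a, and 59.0 and 70.8 in DN2b, and was absent elsewhere (difference 64.1). Its difference was 28.9 points in lists of equal length, with DN2b replicate 2 at 1.2. The DHS at +179.6 kb was largely a DN2 site, at 56.5 and 44.5 in DN2a, 77.5 and 90.4 in DN2b and 6.79 in DN1 replicate 1, and in lists of equal length at 9.59 and 2.76 in DN2a and 58.05 and 67.35 in DN2b alone. The DHS at +121.3 kb went another way, with 83.6, 80.6 and 87.3 in LSK, 49.0 to 79.2 in the Delta1-cultured libraries, and 0, 0 and 10.8 in IgG. Its IgG difference was -67.8 points, and at equal list lengths -39.3 points.

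The broad middle of the desert, from 300 to 1200 kb, held 69 DHSs, 33 of them in 1 library. LSK libraries had a peak at 2, 3 and 1 of them and IgG libraries at 5, 1 and 7, against 13 to 40 in Delta1-cultured libraries. With lists of equal length LSK had 0, Delta1-cultured libraries 4 to 6 and IgG 3, 1 and 7, so IgG overlapped the Delta1-cultured libraries and IgG replicate 3 had the most. The DHS at +745.3 kb, in an intron of Gm41333, stood at 88.0 and 90.4 in DN1, 89.5 and 90.6 in DN2a, and 97.9 and 98.2 in DN2b. It was at 8.12 in LSK replicate 2 and absent from the other LSK and all IgG libraries. This was the largest Delta1 difference of the region, at 91.1 points. The DHS at +838.7 kb, intergenic, stood between 71.7 and 92.7 with Delta1 and at 15.97 in LSK replicate 3 alone of the others (difference 75.1). The DHS at +749.6 kb, between 53.4 and 80.1 with Delta1, and that at +1021.2 kb, between 15.3 and 52.2, were in all 6 Delta1-cultured libraries and no other. With lists of equal length +745.3, +749.6 and +838.7 kb stayed in all 6 and nowhere else, with differences of 82.7, 19.5 and 50.7 points, and +1021.2 kb was in none. The values at +749.6 kb then ran from 1.86 to 33.5. The DHSs at +472.8 and +713.3 kb were in the 4 DN2 libraries and no other, but in lists of equal length +472.8 kb was in none and +713.3 kb in the 2 DN2b libraries alone, at 58.05 and 38.9.

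Between 1200 and 1400 kb, at the known distance of N-Me, accessibility was found with Delta1 and not without it. Of its 6 DHSs, LSK and IgG libraries had 0, DN1 libraries 3 and 3, DN2a libraries 4 and 4, and DN2b libraries 5 and 6. In lists of equal length DN1 libraries had 1 and 1, DN2a 3 and 3, DN2b 4 and 3, and LSK and IgG again 0. In such bulk libraries, fewer cells with an open DHS and less opening per cell cannot be told apart. Neighbouring DHSs of this group differed in stage.

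The DHS at +1270.6 kb was largely open in DN2. It lay at chr15:63255857-63256066, at the start of the lincRNA gene Gm49014 and within an intron of Gm41335, and carried the RBPJ letters printed above. Its percentile was 0 in each LSK and IgG library, 16.1 and 0 in DN1, 80.0 and 77.7 in DN2a, and 91.9 and 97.7 in DN2b. The DN2 libraries did not overlap any other, and both DN2b values were above both DN2a values, a comparison of 2 with 2 that was not tested. DN2 exceeded the other libraries by 84.8 points, and by 74.1 points at equal list lengths, where DN1 had no peak. Its DN2 call, like every other, was lost when any library but DN1 replicate 1 was left out, although DN2 stayed higher. With fewer libraries the smallest possible p is larger, so this loss is no measure of stability.

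The DHS at +1285.1 kb, at chr15:63270437-63270626, was open from DN1 on. It stood at 84.5 and 77.0 in DN1, 95.7 and 87.1 in DN2a, and 85.3 and 92.0 in DN2b, with no peak in any LSK or IgG library. The Delta1 difference was 87.0 points and 70.1 points at equal list lengths. The DHS at +1300.9 kb had the same presence, at 63.2 and 16.9 in DN1, 70.6 and 61.0 in DN2a, and 44.9 and 69.3 in DN2b. The DHS at +1294.5 kb was confined to the 4 DN2 libraries, at 51.3 and 42.3 in DN2a and 77.5 and 88.2 in DN2b. At equal list lengths +1294.5 kb was found in DN2b alone and +1300.9 kb in DN2a alone. The T precursor, mast cell and NK cell lists were higher in summed percentile in every Delta1-cultured library than in any other. The T precursor sums are given above. Those of the mast cell list ran from 65.1 to 142 with Delta1, 30.2 to 52.7 in LSK and 0 to 34.9 in IgG, with Ms4a2 at 0 throughout. Those of the NK cell list ran from 65.6 to 147 with Delta1, 0 to 63.6 in LSK and 0 in IgG, with Ncr1 at 0 throughout. The erythroid and megakaryocyte sums were 223 to 247 in LSK, 216 to 261 in DN1, 158 to 168 in DN2a, 40.5 to 134 in DN2b and 0 to 35.3 in IgG, with Gata1 at 0 throughout, and thus lower in DN2 than in LSK. The part of any of these lists in the differences was not tested.

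**Figure D3:**
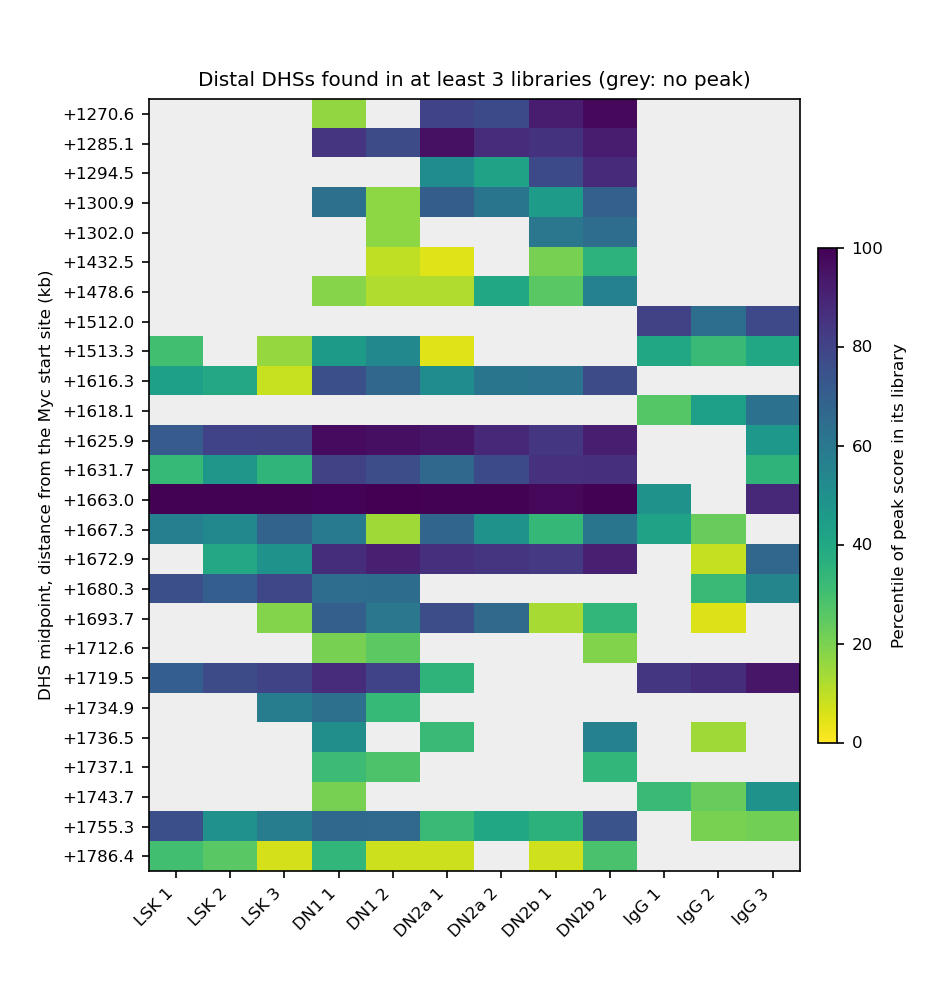
Rows are the DHSs from 1200 to 1800 kb found in at least 3 libraries, by distance from the Myc start site, and columns are libraries. Colour is the score percentile and grey is no peak; the top rows are grey in LSK and IgG, and +1663.0 kb is at 97.9 or higher in all LSK and Delta1-cultured libraries.

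Between 1600 and 1800 kb, at the known distance of the blood enhancer cluster, DHSs were open in every group. The segment held 28 DHSs, or 140 per Mb. LSK libraries had 9, 10 and 14, DN1 18 and 15, DN2a 12 and 8, DN2b 10 and 16, and IgG 6, 9 and 11. With lists of equal length LSK had 7, 7 and 8, DN1 8 and 9, DN2a 6 and 7, DN2b 6 and 6, and IgG 6, 9 and 11. DN1 then lay above DN2a and DN2b, DN2b lay below LSK, and IgG overlapped every group.

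In every LSK and Delta1-cultured library, though not in IgG, the DHS at +1663.0 kb had the highest score of this segment. It stood at 99.5, 99.4 and 99.5 in LSK, 99.1 and 99.8 in DN1, 99.5 and 99.4 in DN2a, and 97.9 and 99.3 in DN2b. In IgG it stood at 48.7, 0 and 88.3, below all 9 others but with a wide spread. The IgG difference was -53.6 points and -55.6 points at equal list lengths. Without IgG replicate 2, which had no peak, it was -30.7 points. The DHS at +1625.9 kb had 3 levels, with 97.2, 95.9, 94.5, 88.6, 84.2 and 91.7 in the Delta1-cultured libraries, 71.3, 79.9 and 79.4 in LSK, and 0, 0 and 46.9 in IgG. These levels did not overlap. It was higher with Delta1 by 45.8 points (adjusted p = 0.0205, exact permutation test) and lower in IgG (difference -71.3). Its Delta1 call held at equal list lengths (adjusted p = 0.0232, exact permutation test), but leaving out any 1 Delta1-cultured library lost it. The DHS at +1616.3 kb was absent from IgG and higher with Delta1 by 50.3 points, and by 22.3 points at equal list lengths, where it was left in 1 LSK library and was absent from DN2a replicate 1. Its call as deposited was lost at equal list lengths, and also without any Delta1-cultured library but DN1 replicate 2. The other 3 of the 5 DHSs called higher with Delta1 in this segment, named after their values were seen and so without a p, were +1631.7 kb (difference 53.9), +1672.9 kb (59.8) and +1693.7 kb (49.0). In lists of equal length +1693.7 kb was absent from both DN2b libraries.

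The DHS at +1719.5 kb was the only one of the region called lower in DN2. It lay at chr15:63704777-63705006 in an intron of Gm41335. Its percentile was 70.1, 76.9 and 79.4 in LSK, 87.1 and 80.0 in DN1, 34.9 and 0 in DN2a, 0 and 0 in DN2b, and 84.0, 86.8 and 94.1 in IgG. All 8 other libraries were above all 4 DN2 libraries, by 73.6 points on average (difference -73.6). In lists of equal length it was absent from all 4 DN2 libraries and present in the other 8, at 51.1 to 93.3 (difference -69.5). The DHS at +1680.3 kb, named after its values were seen and so without a p, was not called. It too was absent from all 4 DN2 libraries, also at equal list lengths (difference -55.0 as deposited). It stood at 75.5, 70.0 and 78.7 in LSK, 64.4 and 64.6 in DN1, and 0, 32.4 and 54.6 in IgG.

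**Figure D4:**
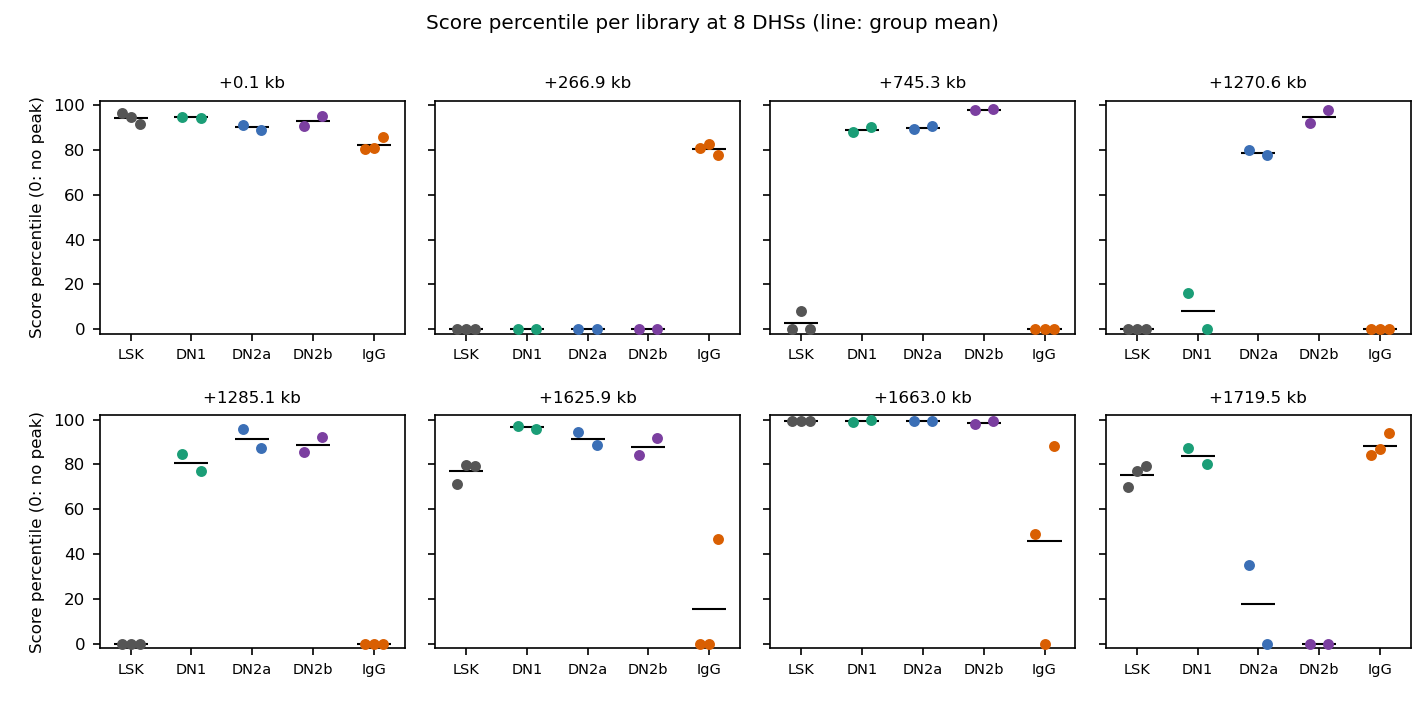
Points are libraries and lines are group means of the score percentile (0 is no peak) at 8 DHSs named by distance from the Myc start site. At +1270.6 kb the 4 DN2 libraries sit between 77.7 and 97.7 and DN1 at 16.1 and 0, whereas at +1719.5 kb DN2 libraries sit between 0 and 34.9 and all others at 70.1 or higher.

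IgG libraries had DHSs of their own. Of the 77 tested, 7 were in all IgG libraries and no other, or 9.09%, where 3.62% of all tested DHSs had this pattern. The DHS at +266.9 kb, in a Pvt1 intron, stood at 81.1, 82.5 and 78.0 in IgG. The DHS at +71.2 kb, also in Pvt1, stood at 83.0, 80.9 and 69.3, and that at +1512.0 kb, in Gm41335, at 80.5, 63.9 and 78.0. These had no peak in any LSK or Delta1-cultured library. The DHSs at +167.0 kb (52.4 to 69.3) and +885.9 kb (48.9 to 60.6) had the same pattern at lower levels. They were open in exactly the number of libraries that the tests required, so no p is given for them. Myeloid promoters had summed percentiles of 290 to 345 in IgG and 0 to 72.8 elsewhere, with Ly6g, a neutrophil marker, at 0 throughout, and their part in these DHSs was not tested. LSK had 2 DHSs of its own, +142.6 kb at 36.0, 31.6 and 56.4 and +221.3 kb at 27.3, 16.2 and 21.3, or 2.60% of those tested against 1.24% of all. At equal list lengths +142.6 kb was left in 1 LSK library and +221.3 kb in none.

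Over the whole region DHSs were called in 3 of the 4 contrasts. Each DHS with a peak in at least 3 libraries was tested (77 here, 88786 in all), and the 4 contrasts share libraries. With Delta1, 16 were higher and 0 lower, where 13.1% of all tested DHSs were higher and 0.776% lower, and the share higher here was 20.8%. Of these 16, 11 had a peak in fewer than 3 libraries without Delta1, 5 of them in none. Of all DHSs called higher, 52.0% had one in fewer than 3 such libraries. The median Delta1 difference was 15.5 points in the region and 13.4 over all. With lists of equal length 8 of 38 were higher and 0 lower, where 7.67% and 3.45% of all were, and the medians were 14.0 and -0.223 points. Of these 8, 7 had a peak in fewer than 3 libraries without Delta1, 5 of them in none. In DN2, 9 were higher and 1 lower, where 4.21% and 0.726% of all were. Of the 9, 8 had a peak in fewer than 3 other libraries, and the 1 lower had one in fewer than 3 DN2 libraries. In lists of equal length 7 were higher and 1 lower, where 7.58% and 2.15% of all were, and all 7 and the 1 had the same limit. The DN2 calls fell to 0 when any library but DN1 replicate 1 was left out, and no DHS of the genome was then called. Such fits have fewer divisions and a larger smallest p, so this loss is no measure of stability.

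In IgG, 8 were higher and 6 lower, where 5.70% and 17.2% of all were. All 8 higher had a peak in fewer than 3 other libraries, 7 of them in none, and 5 of the 6 lower had a peak in fewer than 3 IgG libraries. The counts are thus descriptions. At equal list lengths 9 were higher and 2 lower, where 15.1% and 8.93% of all were, and all 9 and both of the lower had the same limit. Leaving out any IgG library left 0 calls in the region and in the genome. Fewer divisions are then possible and the smallest p is larger, so this loss is no measure of stability. For LSK against the rest, 0 were called in the region and 0% of all in each direction, also at equal list lengths, by the exact permutation test. At an unadjusted p under 0.05, 4 DHSs of the region and 7604 of all passed for LSK, and the smallest p its 220 divisions allow is 0.00455. By presence, 5 DHSs were in all 6 Delta1-cultured libraries and no other, where 3.63% of all tested were. 3 were in all 4 DN2 libraries and no other, where 1.45% were, and 0 were shared by every LSK and IgG library and missing with Delta1, where 0.189% were.

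**Figure D5:**
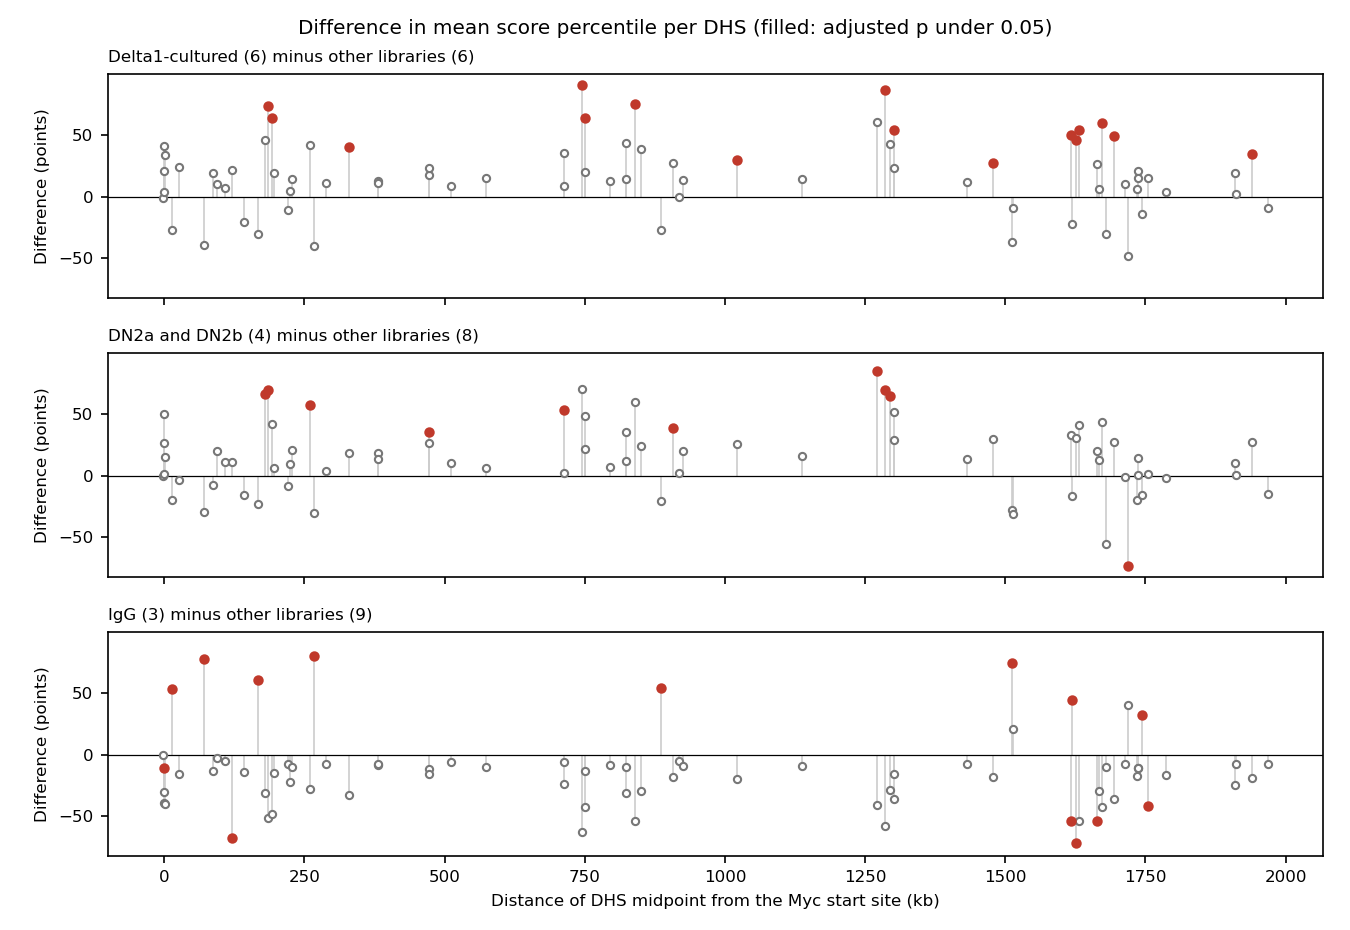
Each point is a tested DHS at its distance from the Myc start site, and the vertical axis is the difference in mean score percentile in points for Delta1, DN2 and IgG against the other libraries; filled points have adjusted p under 0.05. Filled Delta1 points all lie above 0, from +184.5 to +1939.3 kb, and 1 filled DN2 point, +1719.5 kb, lies below.

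Further distal DHSs were found between 1400 and 1600 kb and past 1800 kb. Between 1400 and 1600 kb, the DHS at +1478.6 kb was in all 6 Delta1-cultured libraries and no other, at 11.7 to 55.9, and in no library at equal list lengths. The DHS at +1513.3 kb, near the IgG site at +1512.0 kb, was found in 8 libraries, at 45.5 and 53.4 in DN1, above 39.9, 32.4 and 40.04 in IgG, at 30.2, 0 and 15.97 in LSK, and at 4.71 in DN2a replicate 1. At equal list lengths the order turned round, with 0 and 1.86 in DN1 and 31.6, 32.4 and 31.7 in IgG. Past 1800 kb, the DHS at +1939.3 kb, in the pseudogene Gsdmcl-ps, was open in all 12. It stood at 24.2, 31.6 and 39.6 in LSK, 49.0 to 80.7 with Delta1, and 61.4, 26.2 and 26.8 in IgG (Delta1 difference 35.0, adjusted p = 0.0344, exact permutation test), and it did not pass at equal list lengths (adjusted p = 0.321). When 1 library was left out, this call was kept only without DN2b replicate 1 or IgG replicate 1. The DHS at +1910.4 kb, in an intron of Gsdmc4, was found in 5 libraries and passed no contrast, and +1968.1 kb, in Fam49b, was found in 5 and passed none.

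The letters of several factors were counted in the highest peak of each DHS, on both strands. Some shares in small groups lay near those of all DHSs and others did not. RBPJ letters stood in 12.9% of the region's DHSs and 12.8% of all. Of the 16 higher with Delta1, 1 held them (6.25%), and of the 7 found in IgG alone, 4 did (57.1%). They stood in 1 of the 9 higher in DN2 (11.1%) and in 3 of the 28 between 1600 and 1800 kb (10.7%). RUNX letters stood in 40.5% of the region and 39.9% of all, in 10 of the 16 higher with Delta1 (62.5%) and in 0 of the 7. They stood in 4 of the 9 higher in DN2 (44.4%) and in 11 of the 28 between 1600 and 1800 kb (39.3%). TCF1 and LEF1 letters stood in 20.2% of the region and 11.2% of all, and in 5 of the 9 higher in DN2 (55.6%). GATA letters (AGATAA) stood in 10.4% of the region and 8.29% of all, and in 0 of the 28 DHSs between 1600 and 1800 kb. E protein letters (CAGNTG) stood in 39.3% and 38.9%, and in 6 of the 9 higher in DN2. ETS letters (GGAAGT) stood in 23.3% and 23.0%, C/EBP letters (TTGCNNAA) in 7.36% and 7.89%, and AP-1 letters (TGANTCA) in 8.59% and 7.62%. The groups were chosen by their scores, the counts are small and were not tested, and a match describes letters only. The median GC content was 46% in the region and 49.3% over all.

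The promoters most like the Myc promoter over the 12 libraries, of 12191 compared by Pearson's r, were Aldh7a1 (0.969), Snx22 (0.968), Zeb1 (0.965), Leo1 (0.965) and Rpl31 (0.960). Like Myc, each had its lowest values in the 3 IgG libraries. Among those most like +1285.1 kb were Adora3 and Tmigd3, which share a promoter peak (0.999 each), Adgrg5 (0.996) and Igf2bp3 (0.996). Each of these 4 was absent from all LSK and IgG libraries and present in all 6 Delta1-cultured ones. These values describe points that share list length and stage, and the promoters were picked as the highest of many.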

How the data were processed

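DNase-seq of 12 libraries was analysed from 1 deposited peak list per library. Per the labels and the study's methods, the authors mapped read pairs by BWA 0.7.12 to the mm10 build (SAMtools 1.2 is also in the submitters' processing notes) and called 150-bp peaks with hotspot2 at an FDR of 0.05, separately for each library. The deposited column 5 is a score, a whole number from 1 to 150 whose meaning is not given in the sources used here. It was therefore used only as its percentile within its own list, ties at their mean rank, with absent peaks at 0. Read depth is unknown, so list length (32952 to 111582 peaks) stands in for it, and no counting interval can be given.

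Peaks overlapping by 1 bp were merged into DHSs. DHSs with a peak in at least 3 libraries were tested by a two-sided exact permutation of the difference in mean percentile (924, 495, 220 and 220 divisions for the Delta1, DN2, LSK and IgG contrasts), adjusted by Benjamini-Hochberg over all DHSs tested, with 0.05 as threshold. Promoters were GENCODE M21 protein-coding start sites ± 1 kb, adjusted over all promoters tested. The tests were checked on simulated data, but the outcome is not given and no result here rests on it. DHSs were named if within 1 kb of the start site, among the 3 highest medians of a segment, or among up to 5 of each presence pattern and each direction of call. The region, lists and rules were chosen with earlier results of these data known. Alternatives were equal list lengths, the upper 50% of each list, merging only peaks that share 50 bp or also those up to 150 bp apart, no filter or at least 6 libraries, presence in place of percentile, promoter windows of 500 bp and 2.5 kb, and leaving out each library. Python 3.11.15, NumPy 2.4.6 and matplotlib 3.10.9 were used. One promoter that the likeness rule named is not reported here.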

Additional observations from a re-analysis of the deposited data

How the results depend on the processing

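The number of Delta1 calls in the region, 16, was 8 at equal list lengths and 10 with the upper 50% of each list, both on DHSs merged anew, and 0 with presence in place of percentile. The number of DN2 calls, 10, was 4 with the upper 50% of each list, 3 with a peak required in at least 6 libraries, 0 with no filter and 0 with presence. The number of IgG calls, 14 (8 higher and 6 lower), was 7 with the upper 50% (4 and 3), 7 with at least 6 libraries (0 and 7) and 8 with presence (7 and 1). The 163 DHSs became 62 at equal list lengths and 70 with the upper 50%, since fewer peaks were merged. The Delta1 difference at the Myc promoter, 4.24 points, reversed to -1.68 at equal list lengths, and the cause was not tested. Leaving out 1 library at a time gave 13 (without DN2b replicate 2) to 18 Delta1 calls, 0 to 14 DN2 calls, 0 to 0 LSK calls, 0 to 15 IgG calls, 140 to 164 DHSs, and a promoter difference of 2.67 to 5.92. DN2 calls were 0 in every case but without DN1 replicate 1 (14), with a smallest adjusted p over the genome of 0.0525 to 0.0997 in the other cases, and IgG calls were 0 without each IgG replicate, where DHSs of IgG alone also fell below the filter of 3 libraries. These DN2 and IgG fits have fewer divisions and a larger smallest p, so their losses are no measure of stability. Of 12 named Delta1 calls, 9 had at most 1 peak outside Delta1 and say nothing of stability. Each of the other 3 was lost in some leave-one-out fit, namely +1625.9 kb, lost without any 1 Delta1-cultured library (adjusted p up to 0.0813, exact permutation test), +1616.3 kb, lost without any of them but DN1 replicate 2 (up to 0.0580), and +1939.3 kb, kept only without DN2b replicate 1 or IgG replicate 1 (otherwise up to 0.0704). No named call reversed under any alternative. The LSK contrast gave 0 calls throughout. No paired analysis was possible because replicate numbers were given here in accession order and the labels do not say which libraries share an LSK isolate. Read depth is not known, so a missing peak in a short list does not show closed chromatin.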
